A study of Sus scrofa with 5 samples.

Results

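ssc-miR-122 and ssc-miR-885-5p are liver-linked microRNAs (miRNAs) of the pig, written below without the species prefix. Here they were followed through exosomes, the small vesicles that cells shed into body fluids, in 5 fluids of Rongchang pigs at postnatal day 180. These 2 were chosen by name from the 411 mature miRNAs listed in each library. One library each was made from serum, plasma, semen, urine and bile, so each group is a single library of one fluid, and breed and age were the same in all of them. No treatment, genotype or sex was given in the sources used here, and neither was the number of animals behind a library or whether fluids came from the same animals. All differences below are therefore differences between libraries, their intervals cover counting error only, and no p-value is given.

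A miRNA is a short RNA that guides the silencing machinery to messenger RNAs that pair with its seed, the bases near its 5′ end. miR-122 is the dominant miRNA of hepatocytes, where it is transcribed under liver transcription factors and is known for its part in cholesterol and lipid metabolism and as a host factor for hepatitis C virus. Extracellular miR-122 is widely used as a marker of liver injury. miR-885-5p is far less abundant, has been reported as another circulating marker of liver disease, and its gene lies within ATP2B2, a calcium pump gene, in the RefSeq pig annotation. In the same annotation the miR-122 gene stands alone between ALPK2 and NEDD4L, with no other annotated gene overlapping it. The tables hold miRNAs only, so the hepatocyte origin in the label could not be checked against messenger RNA markers. More vesicles from liver cells, more miR-122 per vesicle and miR-122 from any other source cannot be told apart.

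The libraries held 26522 (urine) to 2284926 (semen) listed miRNA counts. These were 0.246% of the library total in urine, 4.47% in serum and 15.9% to 21.2% in the other 3 fluids. No value between 1 and 9 was listed in any library, so a listed 0 can stand for up to 9 counts. Marker miRNAs of other cells were unevenly spread. The 6 erythrocyte miRNAs summed to 14.2% of serum counts and to 0.173% to 0.863% elsewhere, and the 6 detected of 8 leukocyte miRNAs summed to 2.15% of serum and 0.00643% to 0.361% elsewhere. All 12 had their highest share in serum. Other marker lists had their highest sum in urine, from few counts. Muscle miRNAs summed to 287 counts there, or 1.08% (0.256% in serum). The kidney miRNA, miR-204, had 125 counts, or 0.471% (a listed 0 in serum). Epithelium miRNAs had 29 counts, or 0.109% (0.0209% in serum). The part of all these markers in the values of miR-122 was not tested.

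miR-122 was listed in all 5 fluids, over almost the whole range of abundance. In bile it had 91481 counts, 5.47% of all listed miRNA counts (95% interval 5.43 to 5.50), and was the fifth most abundant of 179 miRNAs, between let-7i with 140655 counts and let-7f with 85541. In plasma it had 11836 counts, or 1.03% (1.01 to 1.04), and stood at rank 8 of 161, between miR-9820-5p with 12740 counts and miR-99a with 6842. In serum it had 1842 counts, or 0.389% (0.372 to 0.407), and stood at rank 36 of 180, between miR-185 with 2037 counts and miR-28-3p with 1802. Bile and plasma thus held it among their 10 leading miRNAs, and serum did not.

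Outside bile and blood miR-122 was near the lower limit of the tables. In urine it had 10 counts, the smallest value the tables list, or 0.0377% (0.0181 to 0.0693), and shared the last place among 84 miRNAs with miR-423-3p. In semen, the deepest library, it had 32 counts, or 0.00140% (0.000958 to 0.00198). That placed it at rank 140 of 174, tied with miR-7142-3p, with 33 miRNAs below it. The semen value did not come from a shallow library, whereas the urine value could not have been lower without being listed at 0.

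On the CPM scale, which sets the listed miRNA counts of a library to a total of 1000000, the order of the fluids was bile with 54673, plasma with 10259, serum with 3893, urine with 377 and semen with 14.0. No neighbouring pair in that order had overlapping counting intervals. The authors' own normalized value, RPM, sets a larger library total to the same figure, and gave 8667 in bile, 1642 in plasma, 174 in serum, 2.96 in semen and 0.926 in urine. Bile, plasma and serum kept their order on both scales, while urine and semen changed places. Their RPM intervals, 0.444 to 1.70 in urine and 2.03 to 4.18 in semen, did not overlap either.

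**Figure D1:**
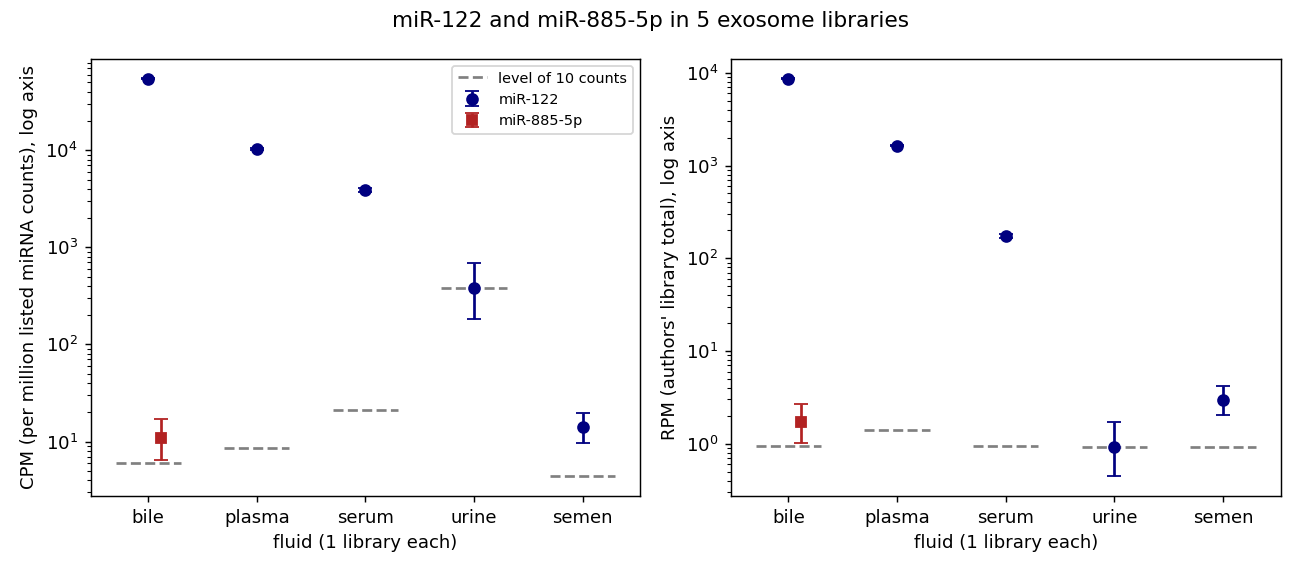
Level of miR-122 (circles) and miR-885-5p (square) in the 5 libraries, in CPM on the left and in the authors' RPM on the right, on log axes with 95% counting intervals. Dashed lines show what 10 counts, the smallest listed value, amount to in each library. miR-122 falls from 54673 CPM in bile to 14.0 CPM in semen and lies on the dashed line in urine, and miR-885-5p is seen in bile only, close to that line.

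miR-885-5p was listed in bile alone, with 18 counts, or 0.00108% of the library (0.000638 to 0.00170). It held rank 156 of 179, tied with miR-139-3p, miR-34a and miR-424-5p, just under miR-331-3p with 19 counts and just above miR-30b-3p and miR-708-3p with 17. In serum, plasma, semen and urine it was listed at 0. The other arm of the same precursor, miR-885-3p, was listed at 0 in all 5 libraries. Of the 179 miRNAs listed in bile, 7 were listed in bile alone. The others were miR-4332 with 11 counts, miR-371-5p with 12, miR-424-5p with 18, miR-130a with 24, miR-504 with 41 and miR-199b-3p with 1584, so miR-885-5p belonged to the 6 with few counts. The related name miR-199a-3p was listed in all 5 fluids. The sources used here do not say how reads were divided between it and miR-199b-3p.

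The depth of the other libraries limits what the listed zeros of miR-885-5p can show. At the bile level of 10.8 CPM, semen would have held 24.6 counts, plasma 12.4, serum 5.09 and urine 0.285. Only in semen and plasma would such a CPM have reached the 10 counts needed for a listing. Against 10 counts in semen, the bile level was at least 2.46 times higher (the counting interval starts at 1.08). Such a 2-fold excess of bile over semen was met by 37.5% of all miRNAs tested. Against 10 counts in plasma the bile level was at least 1.24 times higher, but the counting interval starts at 0.543, so a difference from plasma was not detectable at this depth. In serum and urine the bile level lies below what 10 counts amount to (21.1 and 377 CPM), and no fold is given. The authors' RPM gave another picture, because it sets miRNAs against a larger library total. There the bile level was 1.71 RPM, above what 10 counts amount to in plasma (1.39 RPM), serum (0.944), urine (0.926) and semen (0.926). Bile was thus at least 1.23 times plasma, 1.81 times serum, 1.84 times urine and 1.84 times semen, but each counting interval started below 1, at 0.538, 0.791, 0.806 and 0.806. Serum and plasma, both listed at 0, cannot be compared with each other.

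Within a library the ratio of both miRNAs does not depend on any scaling. Bile held 1.97 counts of miR-885-5p per 10000 counts of miR-122 (1.17 to 3.11), or 5082 counts of miR-122 for each count of miR-885-5p. At that ratio the 11836 counts of miR-122 in plasma would go with 2.33 counts of miR-885-5p (1.38 to 3.68), and the 1842 in serum with 0.362. Both lie under 10, so the bile ratio would also have given a listed 0 in both blood fluids. A ratio other than that of bile was not detectable in plasma below 8.45 per 10000, nor in serum below 54.3 per 10000.

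The next comparison set miR-122 in bile, the secretion of the liver, beside the blood fluids. In CPM bile held 14.0 times the serum level (13.4 to 14.7), and 20.1% of 209 miRNAs tested were at least 2-fold higher in bile than in serum. In these background shares a miRNA listed at 0 was set to 10 counts and was never called higher in the fluid where it was at 0. Bile held 5.33 times the plasma level (5.23 to 5.43), against a background of 46.5% of 213 miRNAs at least 2-fold higher in bile than in plasma. Plasma held 2.64 times the serum level (2.51 to 2.77), and 15.3% of 202 miRNAs were at least 2-fold higher in plasma than in serum. These 3 ratios share libraries and are not independent.

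The ratios that involve plasma depended on how its library was scaled. In plasma 3 miRNAs, miR-378, miR-320 and miR-423-5p, held 41.4%, 25.6% and 16.9% of the counts, and they held 83.9% together, against 0.245% in bile and 3.86% in serum. Of the remaining counts miR-122 took 6.37% in plasma (6.26 to 6.48), 5.48% in bile (5.45 to 5.52) and 0.405% in serum (0.387 to 0.424). Without these 3 miRNAs the share of miR-122 was therefore higher in plasma than in bile.

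Over 8 ways of scaling, the miR-122 ratio of bile to plasma ran from 0.804 to 5.33 and lay above 1 in 6 of them. Both ratios below 1, 0.804 and 0.860, came from scalings chosen after seeing the data. With edgeR's TMM it was 1.03 (1.01 to 1.05). It was 5.28 on the authors' RPM, 3.24 with DESeq2 size factors from positive counts, and 0.804 with DESeq2's median of ratios over the 67 miRNAs listed in every library. Which of these fluids was richer in miR-122 thus depended on the scaling. The order of plasma over serum held in all 8 scalings, at 2.64 to 26.9 times, and so did that of bile over serum, at 13.5 to 49.8 times. CPM gave the lowest of the plasma to serum ratios, and the authors' RPM, at 9.44, lay in between.

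**Figure D2:**
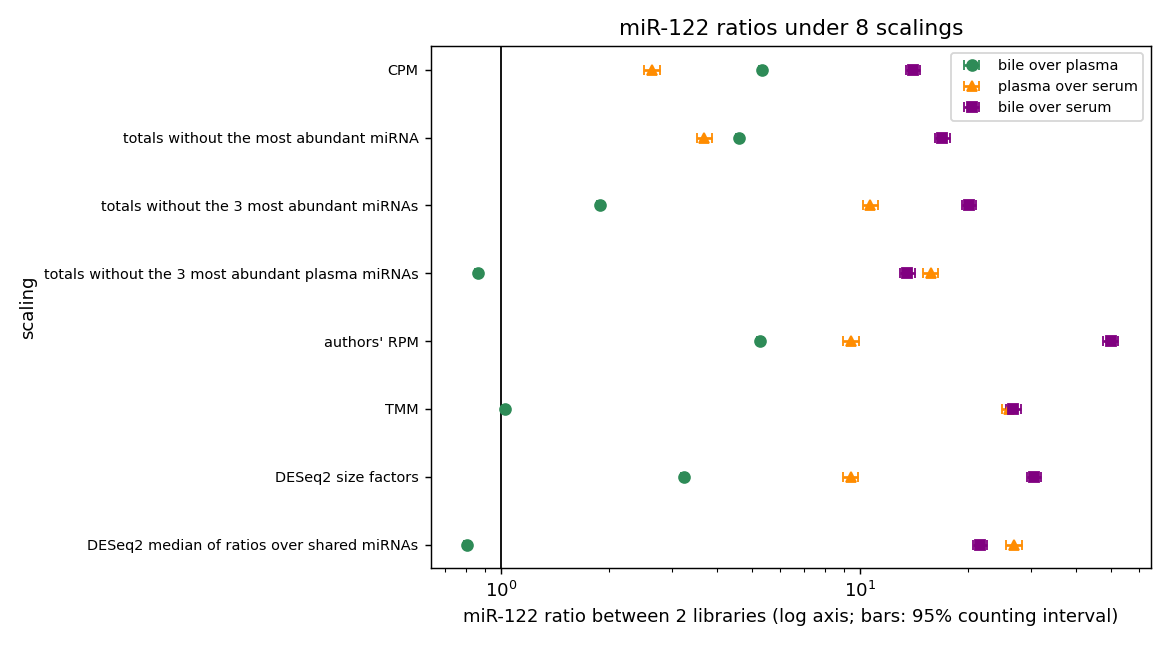
Ratios of miR-122 between bile and plasma (circles), plasma and serum (triangles) and bile and serum (squares) under 8 scalings, on a log axis with 95% counting intervals, some smaller than the symbol. The line marks equal levels. Bile over plasma crosses it, from 0.804 to 5.33, while the ratios over serum are 2.64 or more.

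The place of miR-122 among all miRNAs of a pair of libraries is the same under every scaling. Ordered by the ratio of bile to serum, miR-122 stood at rank 4 of 209 miRNAs. The 3 ahead of it, named after their values were seen, were miR-194a at 75.2 times, miR-199b-3p at 44.8 times with serum set to 10 counts, and miR-96-5p at 17.0 times from 10 serum counts. Ordered by the ratio of plasma to serum, miR-122 stood at rank 25 of 202, and 11.2 times above the median miRNA of that pair. Ordered by bile to plasma it stood at rank 71 of 213, 2.98 times above the median. When the order was limited to abundant miRNAs, those reaching 100 counts in 1 of both fluids, it was 1.16 times above the median, with 52.9% of the others below it. The bile to plasma ratio of miR-122 was thus near the middle of the abundant miRNAs, and its bile to serum ratio near the top.

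**Figure D3:**
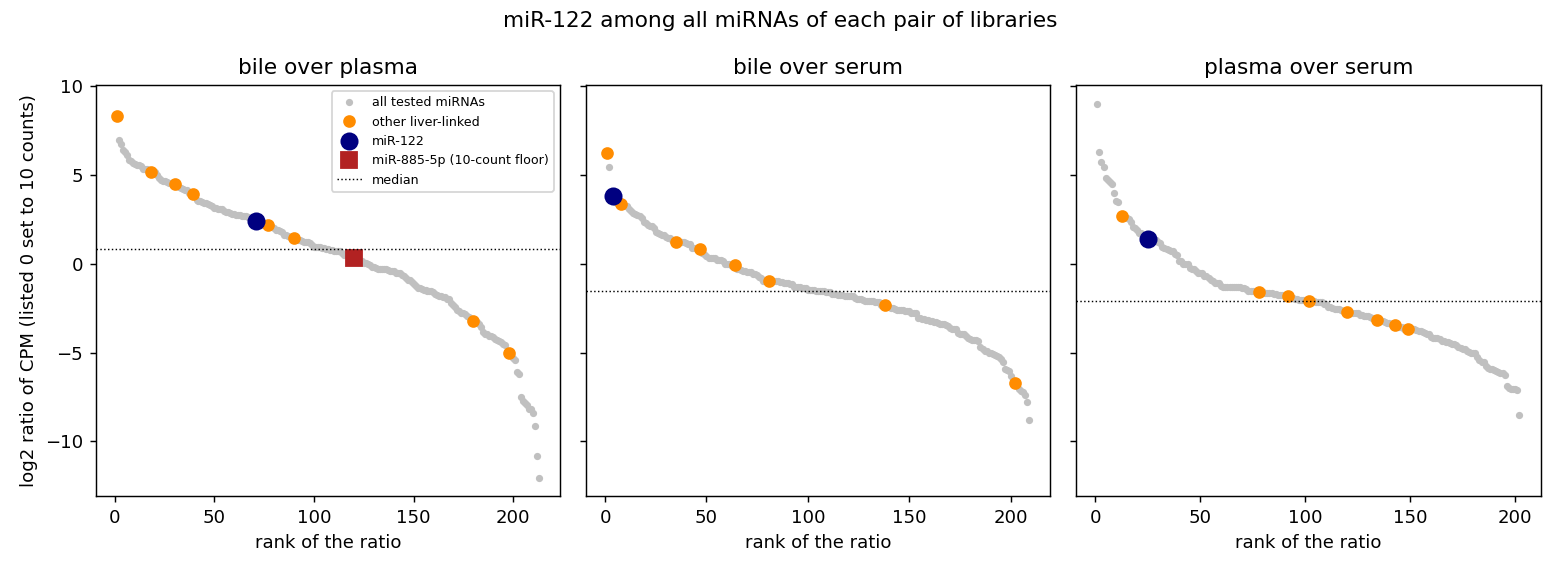
Every tested miRNA ordered by its log2 ratio of CPM between bile and plasma, bile and serum, and plasma and serum, a listed 0 being set to 10 counts. miR-122 (large circle) stands at rank 71 of 213, 4 of 209 and 25 of 202, other liver-linked miRNAs are the smaller filled circles, and miR-885-5p (square, plasma at the floor) is drawn only for bile over plasma.

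Semen and urine stood furthest from bile. miR-122 had the highest ratio of bile to semen of all 208 miRNAs tested, 3904 times in CPM (2765 to 5708), and the highest ratio of bile to urine of all 183, 145 times (78.8 to 302). It was also the highest of the 145 and 80 miRNAs listed in both fluids of each pair, where no listed 0 enters. For urine both places were nearly fixed beforehand, since no urine count is listed below the 10 of miR-122. Only miRNAs more abundant than miR-122 in bile could have ranked above it there. At least 2-fold higher in bile were 37.5% of miRNAs against semen and 7.1% against urine. The urine share is limited by the small urine total. With a listed 0 set to 10 counts, no urine level was below 377 CPM. Only miRNAs at least 2-fold above that level in bile could be called. Plasma held 733 times (519 to 1071) and serum 278 times (196 to 408) the semen level, with 36.9% and 56.4% of miRNAs at least 2-fold higher in the blood fluid. In the order of plasma to semen miR-122 stood behind 3 miRNAs, miR-9820-5p, miR-451 and miR-378b-3p, of which the first pair were listed at 0 in semen. Relative to urine the ratios were 27.2 times in plasma (14.8 to 56.8) and 10.3 times in serum (5.60 to 21.6), beside 12.2% and 21.2% of miRNAs at least 2-fold higher. These ratios rest on the 10 urine counts, and the shares beside them are limited by the urine total in the same way. Over the 8 scalings the lowest values were 2712 times for bile over semen and 143 times for bile over urine.

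Besides bile against plasma, urine against semen was the other pair whose direction turned with the scaling. Urine was 26.9 times higher in CPM (11.8 to 56.1), and 0.313 times the semen level on the authors' RPM (0.137 to 0.652). In the other 6 scalings urine was higher. In CPM 45 of the 181 miRNAs tested, or 24.9%, were at least 2-fold higher in urine. Only the 84 miRNAs listed in urine could be among these 45, so 24.9% understates how common such an excess was among listed miRNAs. Ordered by the ratio of urine to semen, miR-122 stood at rank 50 of 181. The 377 CPM of urine is the level of the smallest listed count, so a lower urine level would have been a listed 0.

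Other liver-linked miRNAs were set beside miR-122, first by their shares and then by their ratio to miR-122 within a library, which needs no scaling. The list held 13 names from the miR-122, miR-885, miR-192, miR-194, miR-215, miR-148a, miR-101 and miR-455 genes, of which 10 were listed in at least 1 fluid. miR-885-3p, miR-455-3p and miR-194b-3p were at 0 throughout, and no listed name matched miR-33a, miR-33b or miR-483. Few of these are confined to liver. miR-192, miR-194 and miR-215 are also miRNAs of gut and kidney epithelium, and miR-148a and miR-101 occur in many tissues. Summed, the list took 52.4% of counts in bile, 53.2% in semen, 23.0% in serum, 18.4% in urine and 3.42% in plasma. miR-148a-3p made up most of the semen sum, with 1206850 of 1215539 counts, so the list as a sum did not follow miR-122.

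Of the 10 members, 7 were at least 2-fold higher in bile than in plasma and 2 were at least 2-fold higher in plasma, beside 46.5% and 30.5% of all miRNAs tested. Their median log2 ratio of 2.29 compares with 0.84 over all 213 miRNAs. Between bile and serum 4 of 10 were at least 2-fold higher in bile and 2 in serum, beside 20.1% and 56.0% of all miRNAs (median log2 ratio 0.37, all miRNAs -1.50). Between plasma and serum 2 of 9 were higher in plasma and 7 in serum, beside 15.3% and 71.8% of all miRNAs, with a median log2 ratio of -2.09 beside -2.08 over all miRNAs. These counts use CPM, with a listed 0 set to 10 counts, and moved with the scaling of plasma. With TMM 4 members were at least 2-fold higher in bile than in plasma and 2 in plasma, beside 47 and 97 of all 213 miRNAs. Also with TMM, 5 were higher in plasma than in serum and none in serum, beside 87 and 38 of 202. miR-148a-3p, miR-101, miR-192 and miR-194a were at least 2-fold higher in bile than in plasma in all 8 scalings, and miR-122 was so in 4 of the 8. In a single scaling, 40 to 99 of the 213 miRNAs were so. In CPM the pair higher in plasma than in serum were miR-122 and miR-148a-5p, the minor arm of the miR-148a precursor, at 6.51 times (5.66 to 7.52).

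Against the 4 partners listed in every fluid, miR-122 stood highest in plasma. Per count of miR-192 there were 0.398 counts of miR-122 in bile, 2.70 in plasma, 0.298 in serum, 0.119 in semen and 0.0270 in urine. From bile to plasma this ratio rose 6.79 times (6.56 to 7.04), since miR-192 had 229971 counts in bile and 4379 in plasma. miR-192 and miR-215 are closely related in sequence, and the sources used here do not say how reads were divided between them. With both added together the ratios were 1.58 in plasma, 0.397 in bile and 0.0916 in serum. Plasma was still the highest, and serum lay further below bile than with miR-192 alone.

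The same comparison against miR-148a-3p gave 0.170 counts of miR-122 per count in bile, 0.726 in plasma, 0.0215 in serum, 0.00227 in urine and 2.7e-05 in semen. Plasma exceeded bile by 4.26 times (4.15 to 4.36) and serum by 33.7 times (32.0 to 35.5). Per count of miR-101 there were 9.51 in bile, 27.3 in plasma, 1.61 in serum, 0.167 in urine and 0.00689 in semen. Per count of miR-194a, which is annotated next to miR-192, there were 12.3 in bile and 740 in plasma, from 16 plasma counts of miR-194a. Serum had 65.8, semen 0.627 and urine 0.278 per count of miR-194a. All 4 partners listed in every fluid placed plasma above bile, and 3 of them, all but miR-194a, placed bile above serum. For comparison, 61.9% of all other miRNAs listed in both bile and plasma would place bile above plasma. Of those listed in both bile and serum, 98.7% would place bile above serum.

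**Figure D4:**
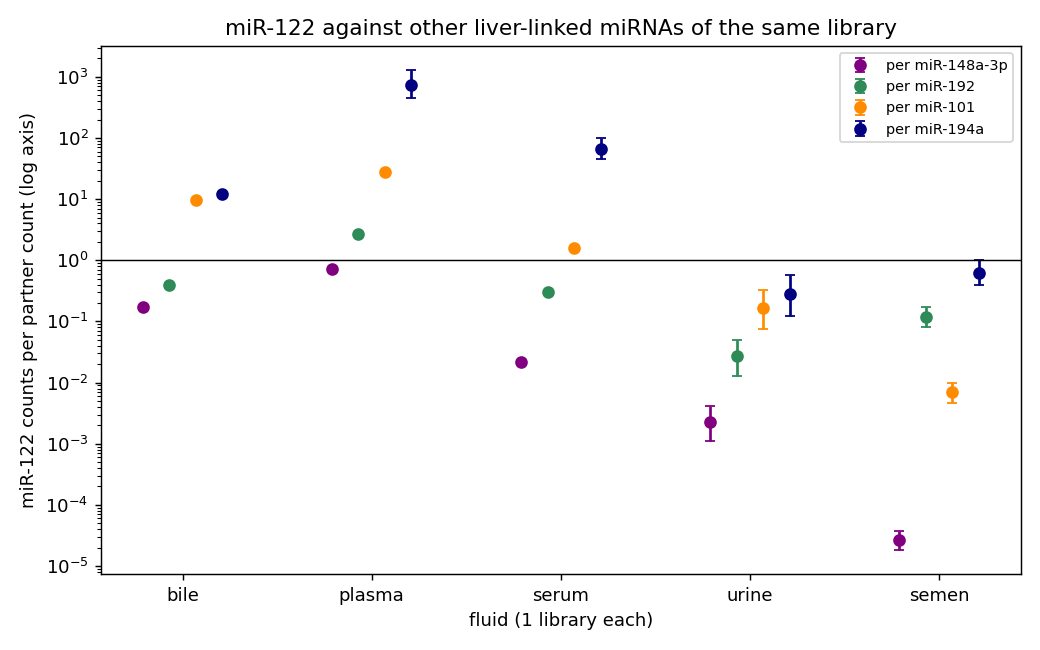
Counts of miR-122 per count of miR-148a-3p, miR-192, miR-101 and miR-194a in each library, on a log axis with 95% counting intervals. For each partner the plasma value is the highest of the 5 fluids, for example 2.70 per miR-192 against 0.398 in bile.

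Not every liver-linked partner behaved like these 4. Of the 7 partners listed in both bile and plasma, miR-122 gained on 4 in plasma and on 3 in bile with intervals clear of 1. The latter were miR-148a-5p, miR-215 and miR-455-5p. miR-215 had 476 counts in bile, 3091 in plasma and 13939 in serum, and miR-148a-5p had 145, 3301 and 208, so both ran opposite to miR-122 between bile and plasma in CPM. Of the 7 partners listed in both blood fluids, miR-122 gained on 6 in plasma, miR-148a-5p being the exception. Of the 8 partners listed in bile and serum, it gained on 7 in bile, miR-194a being the exception. Such gains were not particular to these partners. Among all miRNAs listed in both fluids, without regard to intervals, miR-122 outranked 61.9% of the others for bile to plasma. It outranked 89.1% for plasma to serum and 98.7% for bile to serum.

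Across the 5 fluids, the miRNAs with a profile closest to that of miR-122 were miR-199a-3p, miR-192, miR-143-3p, miR-146a-5p and miR-100. Closeness was the root mean square difference of mean-centred log2 CPM, with a floor of 10 counts, over 5 libraries and 139 candidate miRNAs. It was 1.69 for miR-199a-3p, 2.18 for miR-192, 2.30 for miR-143-3p, 2.77 for miR-146a-5p and 3.06 for miR-100, beside a median of 4.80 over all candidates. miR-199a-3p, known from fibroblasts, had 6954 counts in bile, 552 in plasma, 301 in serum, 13 in urine and 11 in semen. miR-143-3p, known from smooth muscle, had 37946, 915, 960, 82 and 78 in the same order. In CPM miR-199a-3p, miR-192, miR-143-3p and miR-100 shared with miR-122 the highest level in bile and the lowest in semen. miR-146a-5p was also lowest in semen but was highest in serum, at 11233 CPM beside 1175 in bile. Of the 5, only miR-146a-5p shared the fall of miR-122 from plasma to urine, at 3325 and 566 CPM. miR-199a-3p was at 478 CPM in plasma and 490 in urine, and miR-143-3p at 793 and 3092. miR-192 was at 3795 and 13988, and miR-100 at 1112 and 1244. For miR-885-5p, which is at the floor in all fluids but bile, no closest profiles are named.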

How the data were processed

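Small RNA of 5 exosome preparations was sequenced, 1 library per fluid. The authors deposited, per the file headers, a count for each of 411 mature miRNA names and a normalized value. The normalized value was RPM, computed by the authors against a library total that counts divided by RPM recovered (no value off by more than 0.00461%). Per the submitters' processing notes bcl2fastq 2.17 and genome build Sscrofa10.2 were used. The sources used here do not give the aligner, the miRNA annotation or the handling of multiply matching reads. No miRNA sequences were used here.

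The 2 miRNAs, the lists and the rules were chosen with earlier results of these data known. From the counts, CPM, ranks, exact Clopper-Pearson intervals for shares and exact conditional binomial intervals for ratios were computed (scipy 1.17.1). Only the ratio intervals were tried on simulated data. These data held counting error alone and no lower limit of 10 counts, so the trial checked the calculation only. Ratios of ratios have log-normal (Woolf) intervals. All intervals are at 95%. Without molecular identifiers they cover counting error only. A pair of fluids was compared on the miRNAs reaching 10 counts in 1 or both, a listed 0 being set to 10 and not called higher. Named miRNAs were both members, the liver-linked list, rank neighbours, the 5 closest profiles (candidates had 100 counts in 1 library and were above 0 in 3) and the 3 leading miRNAs of plasma and bile. The closest profiles of miR-885-5p were left out, since it was above 0 in 1 library. Further names are said to be chosen after seeing values, or come with a count of 7 or fewer. The alternatives used edgeR 4.0.16 TMM, DESeq2 1.42.0 size factors, RPM, reduced totals, a floor of 3 counts and expected counts at the urine depth. Gene neighbours came from the RefSeq annotation of another build, Sscrofa11.1, so no coordinates are given.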

Additional observations from a re-analysis of the deposited data

How the results depend on the processing

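Each fluid had 1 library, so no result has a replicate check. No paired analysis was possible because each fluid has a single library and no test was fitted. The ratio of bile to plasma for miR-122, 5.33 in CPM, became 1.03 with TMM, 3.24 with DESeq2 size factors, 4.60 with totals without the most abundant miRNA of each library and 1.88 without the 3 most abundant. It turned to 0.860 without the 3 leading plasma miRNAs and to 0.804 with DESeq2's median of ratios over shared miRNAs; both were chosen after seeing the data. Plasma to serum, 2.64, became 26.0, 9.41, 3.68, 10.7, 15.7 and 26.9 in the same order of settings, and 9.44 on RPM. Bile to serum, 14.0, became 26.7, 30.5, 16.9, 20.1 and, with the median of ratios, 21.6, and 49.8 on RPM; without the plasma leaders it stayed inside its interval, at 13.5. Urine to semen turned to 0.313 on RPM. These moves are the scalings' own: TMM shifted the median log2 ratio of all miRNAs by -2.37 for bile to plasma, 3.30 for plasma to serum and 0.93 for bile to serum. Of the miRNAs differing by 2-fold, those higher in bile than in plasma were 60.4% in CPM and 32.6% with TMM; those higher in plasma than in serum were 17.6% and 69.6%, and those higher in bile than in serum 26.4% and 40.3%.

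For miR-885-5p the bound of bile over plasma, 1.24, became 4.14 with a floor of 3 counts, which the tables do not support, and fell below 1, where no bound remains, with TMM (0.239), DESeq2 size factors (0.755), without the 3 leading miRNAs (0.438), without the plasma leaders (0.200) and with the median of ratios (0.187). Its ratio of plasma to serum could not be given. That of bile to serum had no bound in CPM or with TMM (0.969), and was at least 1.81 on RPM and 1.10 with DESeq2 size factors, with intervals from 0.791 and 0.484. At the depth of urine, miR-122 in semen would come to 0.371 counts and so to a listed 0, a share of 0.0%. With a listed 0 allowed to be called higher at 10 counts, 67.4% in place of 24.9% of miRNAs were higher in urine than in semen; the stricter rule was chosen after seeing the data. At 4-fold the background fell from 15.3% to 9.41% for plasma over serum and from 20.1% to 11.5% for bile over serum. With at least 100 counts in either fluid, 52.9% in place of 67.0% of miRNAs had a lower bile to plasma ratio than miR-122. Of the 5 closest profiles, 3 remained with a floor of 3 counts and all 5 with TMM. With miR-215 added to miR-192, the ratio of miR-122 to its partner was 3.99 times higher in plasma than in bile in place of 6.79, and 4.33 times higher in bile than in serum in place of 1.33.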
